A study of Mus musculus with 20 samples.

Results

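The genes described here are Plagl1 and 9 other imprinted genes known to act in growth control, H19, Igf2, Cdkn1c, Dlk1, Meg3, Grb10, Peg3, Mest and Ndn. They were chosen by the low measured values of Plagl1 in Tnfr2-/- colonoid cultures, with the other 9 selected on their known place in imprinting, and the comparison asked whether the same held for the imprinted genes it is linked to. Members were found by gene symbol in the deposited transcript table, and the values of all transcripts of a symbol were added. Of the 10 genes, 8 had rows among the 35240 symbols of the table, and H19 and Meg3 were not analysed here. A filter on low values, a mean of at least 1 over all 20 libraries, was passed by 6 of the 8 (Plagl1, Igf2, Cdkn1c, Grb10, Mest and Ndn) and by 13539 genes in all. Dlk1 and Peg3 did not pass it and are given as values only.

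Colonoids are organoids derived from mouse colonic crypts and kept in Matrigel with IntestiCult medium. Crypts came from WT mice and from mice lacking TNFR2 throughout the body (Tnfr2-/-), aged 8 weeks, and the cultures had been passaged 5 times and filtered through a 70-µm mesh before seeding. RNA was sequenced on days 1, 2, 3, 5 and 7 post-passage, of which days 1 to 3 are called early and days 5 and 7 late. Each genotype was represented by 2 mice and each mouse by 1 library per day, giving 10 libraries per genotype. By their labels the groups differed in genotype and day.

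Imprinted genes are expressed mainly from the copy inherited from 1 parent, under the control of DNA methylation set in the egg or sperm. Plagl1, also named Zac1, encodes a zinc finger transcription factor that restrains the cell cycle and is expressed from the paternal copy, its promoter lying in a CpG island that is methylated on the maternal copy. It has been placed at the head of a network of imprinted genes that are co-expressed in the embryo and decline after birth, among them the growth factor Igf2, the cyclin-dependent kinase inhibitor Cdkn1c and the noncoding RNA H19. The table holds total RNA per transcript and neither alleles nor methylation, so imprinting itself was not measured.

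The promoters of the genes on which the results turn, Plagl1 and Mest, are shown because imprinted control acts at promoters. Each runs from 250 bases before to 50 bases after a start site in RefSeq on GRCm38.p6, 5′ to 3′ on the plus strand, and capitals mark CG dinucleotides, the sites of methylation. The Plagl1 sequence is chr10:13090582-13090881, and the Mest sequences are chr6:30733256-30733555 (upstream start) and chr6:30737800-30738099 (downstream start).
Plagl1: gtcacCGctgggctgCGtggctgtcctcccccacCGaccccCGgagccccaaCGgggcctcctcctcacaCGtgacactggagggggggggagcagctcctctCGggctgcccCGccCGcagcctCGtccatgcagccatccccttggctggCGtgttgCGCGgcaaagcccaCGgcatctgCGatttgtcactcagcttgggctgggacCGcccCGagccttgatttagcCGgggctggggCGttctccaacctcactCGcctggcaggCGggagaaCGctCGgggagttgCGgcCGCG
Mest, upstream start: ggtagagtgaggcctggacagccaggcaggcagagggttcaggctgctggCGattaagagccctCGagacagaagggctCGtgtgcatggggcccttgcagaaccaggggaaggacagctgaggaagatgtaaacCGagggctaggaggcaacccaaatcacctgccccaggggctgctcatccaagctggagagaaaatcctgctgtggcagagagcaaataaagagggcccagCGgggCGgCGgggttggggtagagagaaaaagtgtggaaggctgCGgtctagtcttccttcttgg
Mest, downstream start: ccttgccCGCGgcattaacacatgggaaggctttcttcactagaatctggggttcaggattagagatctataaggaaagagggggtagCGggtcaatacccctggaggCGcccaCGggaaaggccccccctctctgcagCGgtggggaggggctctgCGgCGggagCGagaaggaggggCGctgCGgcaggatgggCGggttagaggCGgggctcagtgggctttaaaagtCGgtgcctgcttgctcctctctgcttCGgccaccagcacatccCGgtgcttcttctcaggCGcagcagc

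The Plagl1 promoter held 26 CG dinucleotides against a median of 7 over 32851 RefSeq promoters, and 83.1% of promoters held fewer. The upstream Mest promoter held 8 and the downstream one 17. Which Mest start is under imprinted control was not measured. The letters TGCCGC, the motif of the imprint-keeping factor ZFP57, were searched on both strands and were found in 11.6% of all promoters, with 1 match in Plagl1, none in the upstream and 2 in the downstream Mest promoter. The letters GGGGCCCC, a stretch of the kind that PLAG family proteins bind, were found in 1.08% of all promoters and, among the members with an entry, in that of Peg3. The window of Plagl1 did not hold them.

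In the table the targeted gene, Tnfrsf1b, was at 15.3 ± 3.09 in WT and 5.804 ± 2.84 in Tnfr2-/- cultures (SD, n = 10 libraries each), lower but not absent. It was lower by a factor of 3.88 at the early and 1.82 at the late days, and Tnfr2-/- mouse 2 on day 7, at 11.5, lay above WT mouse 1 on day 3, at 11.1. The values, here called normalised expression, were taken to be TPM divided by a size factor, a level per transcript length. This unit was inferred from the values and the tools named, levels are compared between genes only on that basis, and the number of reads behind a value is not known. Between 13007 and 13469 genes per library reached a value of 1, and the Pearson correlation across genes between the mice of a group lay between 0.923 and 0.956. All 8 epithelial markers examined (such as Epcam and Krt8) had a mean of at least 1 and summed to 11639 to 20031 per library. All 14 fibroblast markers (such as Col1a1 and Pdgfra) did so too, summing to 1525 to 8274, so the cultures held RNA typical of fibroblasts beside that of epithelium. Fewer cells of a type and less RNA per cell cannot be told apart in such bulk libraries.

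Plagl1 (ENSMUSG00000019817, chromosome 10, 13060504 to 13131694, plus strand, GRCm38) was low in every Tnfr2-/- library. WT mouse 1 had normalised expression of 10.2, 23.8, 28.9, 16.4 and 14.7 on days 1, 2, 3, 5 and 7, and WT mouse 2 had 7.28, 17.0, 45.8, 38.1 and 27.3. Tnfr2-/- mouse 1 had 2.38, 2.10, 1.88, 5.24 and 4.15, and Tnfr2-/- mouse 2 had 1.81, 3.79, 1.82, 2.31 and 2.36. The groups did not overlap. The highest Tnfr2-/- library, at 5.24, lay below the lowest WT library, at 7.28. Of the genes tested, 11 (0.0812%) had all 10 Tnfr2-/- libraries below all 10 WT libraries, and Plagl1 was the only member among them.

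The mean was 22.9 ± 12.3 in WT and 2.78 ± 1.18 in Tnfr2-/- cultures (SD, n = 10 each), a ratio of 8.24. The ratio of the means was 4.18 on day 1, 6.92 on day 2, 20.2 on day 3, 7.22 on day 5 and 6.45 on day 7. On the log2(value + 1) scale the difference was -2.53 over all days (SE 0.237) and -2.43 at the late days (SE 0.316). Because Plagl1 was chosen for this difference, these values are a description and carry no test. In WT cultures 56.2% of the genes tested had a lower mean than Plagl1, and in Tnfr2-/- cultures 13.7% did.

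**Figure D1:**
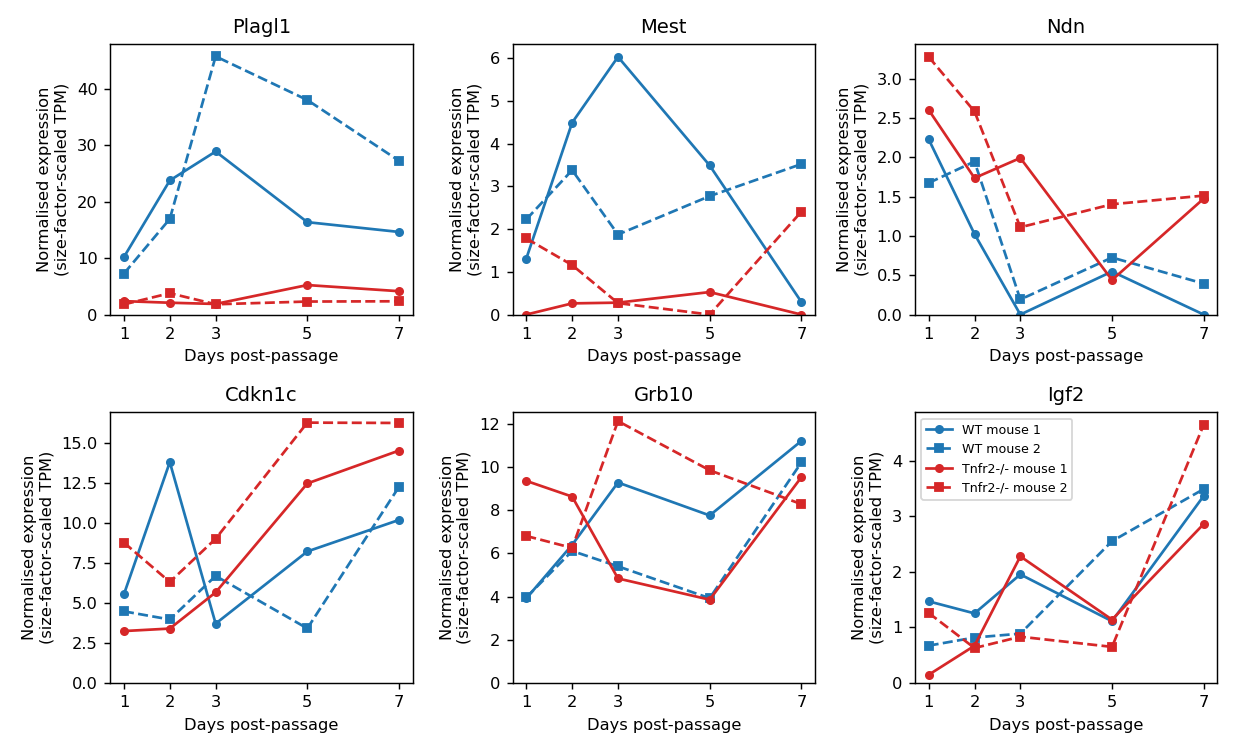
Normalised expression (size-factor-scaled TPM, linear axis) of the 6 members that passed the filter against days post-passage, 1 line per mouse, blue for WT and red for Tnfr2-/-. For Plagl1 the red lines stay at or below 5.24 while the blue lines rise to 28.9 and 45.8 on day 3, and the lines of Grb10 and Igf2 cross.

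The table divides Plagl1 into 25 transcripts. The 22 that begin in the main start region, between 13090691 and 13091013 on chromosome 10 and overlapping the promoter shown, carried 86.5% of the WT sum and 91.9% of the Tnfr2-/- sum. They were at 19.8 ± 9.56 in WT, with libraries from 7.28 to 36.4, and at 2.56 ± 1.22 in Tnfr2-/- cultures, from 1.17 to 4.95 (SD, n = 10 each), so these groups did not overlap either. The 2 transcripts that begin downstream, at 13113465 and 13116364, were at 3.09 ± 3.75 in WT, where they were listed at 0 in 3 of 10 libraries, and at 0.227 ± 0.389 in Tnfr2-/- cultures, listed at 0 in 6 of 10. The 1 transcript that begins far upstream, at 13060504, was listed at 0 in all 20 libraries.

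A single coding transcript, ENSMUST00000121646.7, led the gene in both genotypes. It made up 57.3% of Plagl1 in WT and 54.5% in Tnfr2-/- cultures. Its level was 13.2 ± 8.52 in WT, from 2.19 to 27.3, and 1.52 ± 0.599 in Tnfr2-/- cultures, from 0.631 to 2.44 (SD, n = 10 each), with an overlap between the 2.19 of WT mouse 1 on day 7 and the 2.44 of Tnfr2-/- mouse 2 on day 2. The same transcript led, and the same start region carried most of the sum, in both genotypes. Reads shared by near-identical transcripts are divided by a model, so single transcripts are less certain than the gene.

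**Figure D2:**
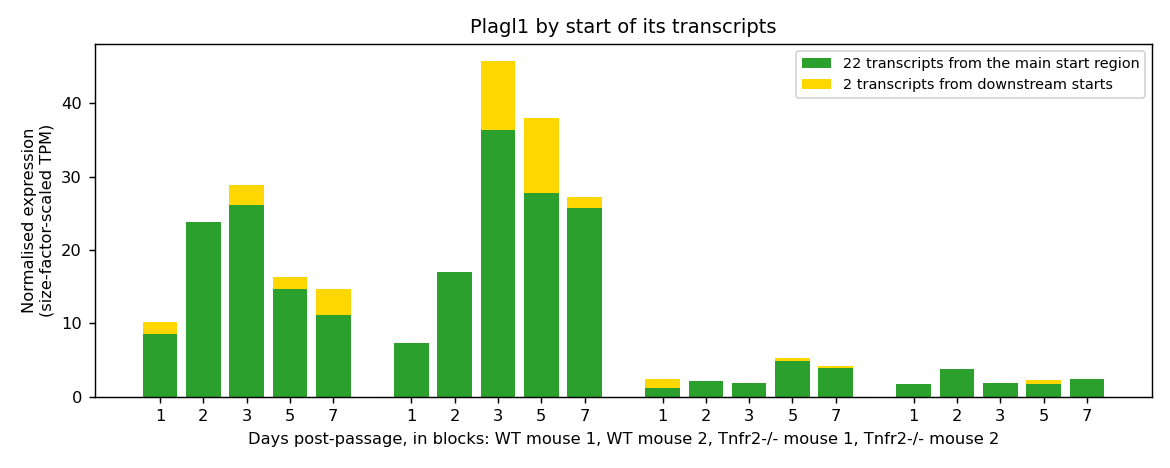
Plagl1 normalised expression per library (size-factor-scaled TPM, bars stacked from 0), divided by where transcripts begin, in blocks of 5 days per mouse. Transcripts of the main start region make up most of each WT bar, and no Tnfr2-/- bar rises above 5.24.

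Whether the low level extended to the imprinted network was examined in the 5 other members that passed the filter. Over all days 2 of the 5 were called at an adjusted p under 0.05, in opposite directions, where 7.6% of all genes tested were called. Mest fell and Ndn rose in Tnfr2-/- cultures, and neither was called with the 4 mice as a correlated replicate block. Igf2, Cdkn1c and Grb10 did not pass the test. Mest and Ndn each had a mean of at least 1 in only the genotype where they were high, WT for Mest and Tnfr2-/- for Ndn, and passed the filter through it, so the count of 2 supports nothing about the members as a group.

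Mest (chromosome 6, 30723547 to 30748465, plus strand) is paternally expressed and encodes a hydrolase-like protein of the endoplasmic reticulum. In order of day its normalised expression was 1.31, 4.50, 6.03, 3.49 and 0.296 in WT mouse 1 and 2.23, 3.38, 1.88, 2.77 and 3.52 in WT mouse 2. Tnfr2-/- mouse 1 had 0, 0.262, 0.279, 0.527 and 0, and Tnfr2-/- mouse 2 had 1.78, 1.16, 0.268, 0 and 2.41, with a value of 0 meaning that the gene is listed at 0. On days 2, 3 and 5 the WT libraries both exceeded the Tnfr2-/- libraries, whereas the groups overlapped on days 1 and 7. On at least 3 of the 5 days 10.8% of all genes tested were separated in this direction. The means were 2.94 ± 1.64 and 0.669 ± 0.840 (SD, n = 10 each), a ratio of 4.40.

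Over the 5 days Mest had a log2 difference of -1.25 (SE 0.314, limma adjusted p = 0.0225). The difference was -2.56 with a pseudocount of 0.1 (SE 0.673, limma adjusted p = 0.0289). With the 4 mice as a correlated replicate block the adjusted p was 0.0561, and on the means of 2 mice against 2 it was 0.336. The call was also lost without WT mouse 2 (log2 difference -1.205, adjusted p = 0.0907) and without Tnfr2-/- mouse 1 (-0.91, adjusted p = 0.297), the mouse with the lowest values. The leading Mest transcript, ENSMUST00000157040.7, begins at 30733506, the upstream start shown above, and was at 1.41 ± 0.786 in WT and 0.278 ± 0.357 in Tnfr2-/- cultures (SD, n = 10 each). The transcript from the downstream start, ENSMUST00000163949.8, was at 0.286 ± 0.791 in WT, where 8 of 10 libraries were listed at 0, and was listed at 0 in all 10 Tnfr2-/- libraries. Another transcript, ENSMUST00000115127.7, begins farther upstream, at 30723547, outside the sequences shown. It was at 0.818 ± 1.60 in WT and 0.213 ± 0.673 in Tnfr2-/- cultures (SD, n = 10 each). The end of Mest overlaps Copg2 on the opposite strand, which had a log2 difference of 0.01 (SE 0.081, limma adjusted p = 0.967).

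Ndn (necdin, chromosome 7, 62346569 to 62350262, plus strand) is a paternally expressed MAGE family gene that restrains the cell cycle. Its normalised expression was 2.23, 1.02, 0, 0.548 and 0 in WT mouse 1 and 1.68, 1.95, 0.192, 0.726 and 0.394 in WT mouse 2. Tnfr2-/- mouse 1 had 2.60, 1.74, 1.99, 0.44 and 1.48, and Tnfr2-/- mouse 2 had 3.28, 2.58, 1.11, 1.40 and 1.51. Both Tnfr2-/- libraries lay above both WT libraries on days 1, 3 and 7, and on no day were both below. Separation in this direction on at least 3 of the 5 days was found for 9.83% of all genes tested. The means were 0.874 ± 0.817 in WT and 1.81 ± 0.827 in Tnfr2-/- cultures (SD, n = 10 each), all near the bottom of the range tested.

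The log2 difference of Ndn was 0.65 (SE 0.184, limma adjusted p = 0.0394). With a pseudocount of 0.1 the difference was larger, at 1.497 (SE 0.456), but the call was lost (limma adjusted p = 0.0548). The call did not hold with the correlated replicate block (adjusted p = 0.0891) or on mouse means (0.443) either. It was also lost in 16 of 24 fits that left out a mouse or a library, with adjusted p-values from 0.0527 to 0.363, and kept without WT mouse 2, without day 1 or 5 of WT mouse 1, without day 2 or 5 of WT mouse 2, and without day 1, 2 or 5 of Tnfr2-/- mouse 1. Across the 10 libraries of a genotype, Ndn had a Pearson r with the fibroblast marker sum of 0.529 in WT and 0.010 in Tnfr2-/- cultures. These libraries share mice, and the part of cell composition in the differences of Mest and Ndn was not tested.

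Igf2, a fetal growth factor of the insulin family, was near the lower limit in both genotypes. It was 1.47, 1.25, 1.95, 1.11 and 3.37 in WT mouse 1 and 0.669, 0.815, 0.885, 2.55 and 3.49 in WT mouse 2. Tnfr2-/- mouse 1 had 0.144, 0.667, 2.28, 1.14 and 2.86, and Tnfr2-/- mouse 2 had 1.26, 0.626, 0.830, 0.647 and 4.65. The highest value of each mouse was that of day 7, and the genotypes overlapped. The log2 difference over all days was -0.21, with a 95% interval from -0.61 to 0.19 (limma adjusted p = 0.56).

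Cdkn1c, which encodes the inhibitor p57 of cyclin-dependent kinases and is maternally expressed, was 5.55, 13.8, 3.71, 8.23 and 10.2 in WT mouse 1 and 4.48, 3.97, 6.70, 3.41 and 12.3 in WT mouse 2. Tnfr2-/- mouse 1 had 3.24, 3.397, 5.67, 12.5 and 14.6, and Tnfr2-/- mouse 2 had 8.78, 6.32, 9.03, 16.3 and 16.3. At the late days all 4 Tnfr2-/- libraries, from 12.5 to 16.3, lay above all 4 WT libraries, from 3.41 to 12.3, but the gap between them was small, and 5.35% of all genes tested were separated in this direction. A retained-intron transcript, ENSMUST00000208118.1, made up 26.4% of the Cdkn1c sum over all days in WT and 39.3% in Tnfr2-/- cultures. On days 5 and 7 it was at 5.91 and 7.19 in Tnfr2-/- mouse 1 and 12.45 and 1.36 in mouse 2. In WT at those days only mouse 2 on day 7, at 4.33, was above 0. The coding transcripts had means over all days of 5.325 in WT and 5.833 in Tnfr2-/- cultures, and their separation at the late days was not tested. The log2 difference of the gene was 0.33 over all days (limma adjusted p = 0.479, 95% interval -0.20 to 0.86) and 0.84 at the late days (limma adjusted p = 0.199, 95% interval 0.04 to 1.65). Over all days it was 0.63 without Tnfr2-/- mouse 1 and 0.02 without Tnfr2-/- mouse 2.

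Grb10, an adaptor that restrains insulin and IGF receptor signalling, was 3.92, 6.40, 9.29, 7.76 and 11.2 in WT mouse 1 and 3.96, 6.11, 5.40, 3.92 and 10.2 in WT mouse 2. Tnfr2-/- mouse 1 had 9.36, 8.64, 4.84, 3.86 and 9.53, and Tnfr2-/- mouse 2 had 6.81, 6.26, 12.1, 9.86 and 8.29. The genotypes overlapped, with both Tnfr2-/- libraries above both WT libraries on day 1 and below them on day 7. The log2 difference over all days was 0.22, with a 95% interval from -0.19 to 0.62 (limma adjusted p = 0.547). It was 0.385 without WT mouse 1 and 0.048 without WT mouse 2. Without Tnfr2-/- mouse 1 and mouse 2 it was 0.349 and 0.083.

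Dlk1, which encodes a transmembrane protein related to Notch ligands, was listed at 0 in 7 of 10 libraries of each genotype and was highest in WT mouse 1 on day 5, at 2.25. Peg3, a paternally expressed zinc finger gene, ranged from 0 to 1.33 in WT and from 0.0631 to 0.826 in Tnfr2-/- cultures. Neither level is high enough to compare genotypes. H19 (chromosome 7, 142575529 to 142578143, minus strand) and Meg3 (chromosome 12, 109541001 to 109571726, plus strand), both noncoding RNAs, were not analysed here. The wider list of imprinted genes held 5 further noncoding genes that were not analysed here either.

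At the late days none of the 5 members other than Plagl1 was called, against 6.45% of all genes tested. Before adjustment 22.9% of all genes tested were under 0.05, and so were 2 of the 5, Cdkn1c (limma adjusted p = 0.199) and Ndn (limma adjusted p = 0.196), both higher in Tnfr2-/- cultures. Mest had a log2 difference of -1.06 (SE 0.507, limma adjusted p = 0.231), close to its value over all days. It ranged from -1.51 to -0.61 over the fits that left out a mouse or a library.

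From early to late in WT cultures none of the 6 members was called, whereas 20.1% of all genes tested were. Before adjustment 33.3% of all genes tested were under 0.05 and Igf2 was the only member, with a log2 difference of 0.71 (limma adjusted p = 0.113). That difference was 1.16 without WT mouse 1 and 0.26 without WT mouse 2. Plagl1 had a log2 difference of 0.25 (SE 0.289, limma adjusted p = 0.58) between the late and the early days in WT cultures. The mice differed in direction, with 0.80 when WT mouse 1 was left out and -0.30 when WT mouse 2 was left out, and neither value was called.

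In Tnfr2-/- cultures 1 of the 6 members was called, against 20.3% of all genes tested. Cdkn1c rose by a log2 difference of 1.24 (SE 0.342, limma adjusted p = 0.0206), from 6.07 at the early days to 14.9 at the late days. These levels are sums that include the retained-intron transcript given above. The call was lost on mouse means (adjusted p = 0.0683) and in 8 of 24 fits that left out a mouse or a library, namely without either Tnfr2-/- mouse, without day 1, 2, 3 or 7 of mouse 1 and without day 5 or 7 of mouse 2, with adjusted p-values from 0.0551 to 0.413. Before adjustment 32.6% of all genes tested were under 0.05, and Igf2 was too, with a difference of 0.67 (limma adjusted p = 0.138) close to that in WT. Over the libraries of this course the fibroblast marker sum went from between 3007 and 4549 to between 2846 and 8274. Cdkn1c had a Pearson r with that sum of 0.64 over the 10 Tnfr2-/- libraries and -0.19 over the 10 WT libraries, and the part of the fibroblast share in the rise of Cdkn1c was not tested.

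The difference between the genotypes in these courses was tested as an interaction, for which 0.148% of all genes tested were called. None of the 6 members was called, and none had an unadjusted p under 0.05. The interaction of Cdkn1c was 0.86 (SE 0.483, limma adjusted p = 0.522) and that of Plagl1 was 0.17 (SE 0.408, limma adjusted p = 0.911), with a 95% interval from -0.71 to 1.05.

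**Figure D3:**
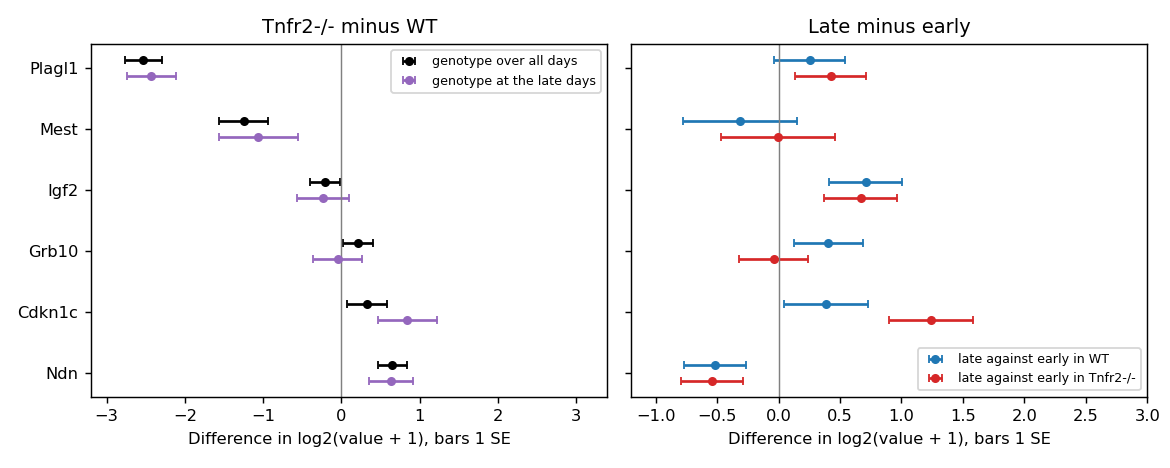
Differences in log2(value + 1) for the 6 members, Tnfr2-/- minus WT on the left (all days and late days) and late minus early on the right (each genotype), with bars of 1 SE from the limma fit. Plagl1 (-2.53) stands farthest from 0 on the left, followed by Mest (-1.25), and the late rise of Cdkn1c in Tnfr2-/- cultures (1.24) stands farthest on the right.

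The genes with the highest correlation to Plagl1 over all libraries were not members. Over the 20 libraries, on the log2(value + 1) scale, the highest Pearson r was that of Prelp (0.916), a leucine-rich matrix protein, followed by St6galnac2 (0.898), Cybrd1 (0.897), Pik3r3 (0.89) and Znf41-ps (0.889). Within the 10 WT libraries Prelp had an r of 0.917 and Znf41-ps of -0.001. Other genes led there, Pgap2 (0.95), Hipk3 (0.945), Gm2004 (0.932), Draxin (0.929) and Itgb4 (0.919), whose r over 20 libraries lay between 0.16 and 0.507. Prelp was at 15.9 ± 10.4 in WT and 1.95 ± 1.5 in Tnfr2-/- cultures (SD, n = 10 each). Among members, Mest was the most like Plagl1 (r = 0.699) and Ndn the least (r = -0.679). Igf2 and Cdkn1c were most like each other (r = 0.41), Grb10 was closest to Cdkn1c (0.312) and Ndn had a negative r with every other member. These correlations are over libraries that share mice and days, and the difference between genotypes, for which Plagl1 was chosen, contributes to each r over 20 libraries. Within WT cultures Plagl1 had an r of 0.763 with the sum of epithelial markers and 0.121 with that of fibroblast markers, against -0.152 and 0.058 in Tnfr2-/- cultures.

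Of the 10 genes tested within 1000000 bases of Plagl1, 1 was called over all days, against the 7.6% called among all genes tested. Ltv1, a ribosome assembly factor whose gene is 46446 bases away on the opposite strand, fell in Tnfr2-/- cultures by 0.45 on the log2 scale (SE 0.09, limma adjusted p = 0.00618). Sf3b5, the next in distance, had a difference of -0.003, and Phactr2 one of -0.46 that was not called (SE 0.168, limma adjusted p = 0.11). The median of the 10 was -0.06, and 3 of them were higher in Tnfr2-/- cultures.

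A wider list of 58 imprinted genes was then examined, of which 53 were in the table and 31 passed the filter. Over all days 4 were called, 3 higher and 1 lower, where 7.6% of all genes tested were called. Dcn (1.65, limma adjusted p = 0.00101), Snrpn (0.53, limma adjusted p = 0.00787) and Cd81 (0.33, limma adjusted p = 0.00979) rose, and Gatm, which encodes an enzyme of creatine synthesis, fell by 0.79 (limma adjusted p = 0.00788). The median difference of the 31 was 0.02, against -0.03 over all genes tested. Snrpn shares its transcript with Snurf, which was listed at 0 in 9 of 10 WT libraries, so reads divided between them are uncertain. Snurf was above 0 in more of the Tnfr2-/- libraries, at up to 14.6. The part of this division in the difference of Snrpn was not tested.

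**Figure D4:**
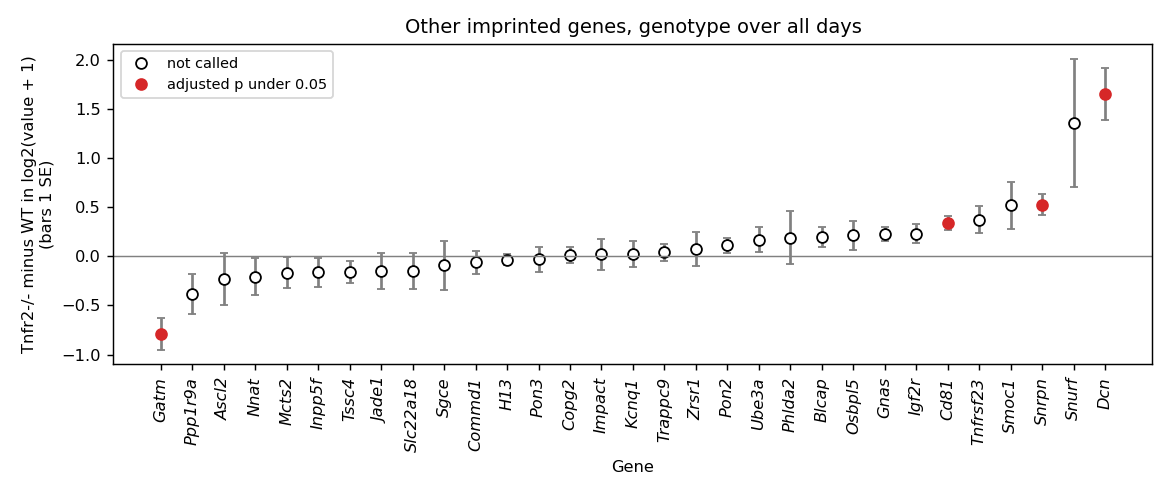
Difference in log2(value + 1), Tnfr2-/- minus WT over all days, for the 31 other imprinted genes that passed the filter, ordered by size, with bars of 1 SE. Filled points were called, from Gatm at -0.79 to Dcn at 1.65, and most of the others lie near 0.

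Dcn, which encodes the matrix proteoglycan decorin and is imprinted in placenta, differed most. At the late days its normalised expression was 135 and 402 in WT mouse 1, 297 and 399.9 in WT mouse 2, 1493 and 2551 in Tnfr2-/- mouse 1, and 1573 and 2164 in Tnfr2-/- mouse 2, for days 5 and 7. The groups did not overlap, as for 5.35% of all genes tested in this direction, and the log2 difference at the late days was 2.74 (limma adjusted p = 2.16e-05). From early to late Dcn fell by 0.90 in WT (limma adjusted p = 0.00775) and rose by 0.91 in Tnfr2-/- cultures (limma adjusted p = 0.00696), an interaction of 1.81 (SE 0.286, limma adjusted p = 0.0403). This last call was lost on mouse means (adjusted p = 0.265) and in 16 of 24 fits that left out a mouse or a library, with adjusted p-values up to 0.929. Of the 31 genes 2 were called at the late days, where 6.45% of all genes tested were called, the other being Smoc1, a matrix protein gene (1.22, limma adjusted p = 0.0496), whose call was lost in 22 of 24 fits that left out a mouse or a library, with the correlated replicate block (adjusted p = 0.0505) and in 4 of the 6 other settings tried.

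Dcn is a gene of fibroblasts. On days 5 and 7 the fibroblast marker sum was 1525 and 1914 in WT mouse 1 and 4135 and 4955 in WT mouse 2. At the late days that sum was thus 1525 to 4955 in WT (median 3025) and 2846 to 8274 in Tnfr2-/- cultures (median 5684). At the early days it was 2379 to 4829 (median 4248) and 3007 to 4549 (median 3717), lower by the median in Tnfr2-/- cultures, where Dcn was higher on every day. The part of the fibroblast share in the difference of Dcn was not tested. Late in culture 13 of the 14 fibroblast markers had a difference above 0, with a median of 0.70, and 2 were called, Twist1 (1.75) and Vim (1.69), where 6.45% of all genes tested were called. Over all days 11 of the 14 had a difference above 0, with a median of 0.34. Vim (1.04), Thy1 (1.37) and Twist1 (0.94) were called higher and none lower, where 7.6% of all genes tested were called. The call of Twist1 over all days was lost with the correlated replicate block (adjusted p = 0.0660). Without WT mouse 1 the difference was 0.59 for Vim (adjusted p = 0.144) and 0.57 for Twist1 (0.132), and that of Thy1 was 0.56 without Tnfr2-/- mouse 2 (0.248) and 2.19 without Tnfr2-/- mouse 1.

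Of 8 epithelial markers 2 were called higher over all days, against the same 7.6%, Cdh1 (0.25) and Epcam (0.36), and neither with the correlated replicate block (adjusted p = 0.0553 and 0.0703). Of the 8 enteroendocrine markers 4 passed the filter. Chga was called lower (-1.56, limma adjusted p = 0.0225), but had a mean of at least 1 only in WT and passed the filter through it. Its difference was -0.72 without WT mouse 1 (adjusted p = 0.299) and -2.40 without WT mouse 2, and the call was also lost without either Tnfr2-/- mouse and with a pseudocount of 0.1 (adjusted p = 0.0548). Of the 5 immune markers 2 passed the filter and Csf1r was called higher (0.76), a call lost with the correlated replicate block (adjusted p = 0.0671), and no endothelial or muscle marker was called. No neural or glial marker passed the filter, and their sum was at most 2.57 in any library.

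Among the markers the course in WT cultures, averaged over the 2 mice, went below 0 for most fibroblast genes. The mice differed in direction. The sum of the 14 fibroblast markers went from 4445 on day 1 to 1914 on day 7 in WT mouse 1 and from 4087 to 4955 in WT mouse 2. Only 5 of the 14 had a difference above 0 from early to late, with a median of -0.25, although Tagln (1.30) and Thy1 (1.56) were called higher and Twist1 was called lower (-1.21), where 20.1% of all genes tested were called. In Tnfr2-/- cultures 13 of the 14 had a difference above 0, with a median of 0.46, and Tagln (1.69), Col1a1 (1.12) and Col1a2 (0.99) were called, where 20.3% of all genes tested were called. None of the 14 was called for the interaction. Epithelial genes called in WT were Epcam (1.33), Cdh1 (0.51), Vil1 (1.08) and Cldn7 (0.56), all higher late. In Tnfr2-/- cultures Epcam (1.57) and Cdh1 (0.50) rose, while Krt8 and Krt19 fell by 0.42 and 0.31. Chga (1.88), Pyy (3.07) and Csf1r (1.17) were called higher late in WT.

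**Figure D5:**
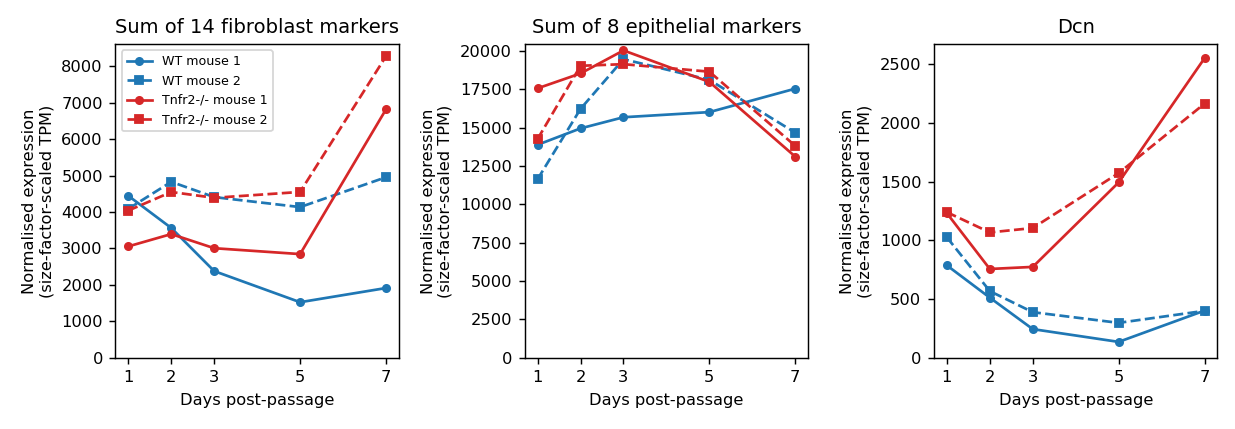
Summed normalised expression of 14 fibroblast and 8 epithelial markers, and the level of Dcn, against days post-passage, 1 line per mouse (size-factor-scaled TPM, axes from 0). On day 7 the fibroblast sums of both Tnfr2-/- mice (6817 and 8274) lie above those of both WT mice, and Dcn lies above WT in the Tnfr2-/- cultures on every day.

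Over time, the wider imprinted list had 7 of 31 genes called in WT (5 higher, 2 lower late) and 8 of 31 in Tnfr2-/- cultures (6 higher, 2 lower), against the 20.1% and 20.3% called among all genes tested. In both genotypes the neighbours Pon2 and Pon3, paraoxonases, and the tetraspanin Cd81 rose, by 0.68, 0.88 and 0.67 in WT and by 0.74, 0.65 and 0.49 in Tnfr2-/- cultures. Slc22a18 (0.99) and Kcnq1 (0.61), which lie in the same imprinted cluster as Cdkn1c, were called in WT with limma adjusted p-values of 0.0129 and 0.0143. In Tnfr2-/- cultures they had differences of 0.11 and -0.01 that were not called. Phlda2, of the same cluster, had a difference of -1.40 in Tnfr2-/- cultures (limma adjusted p = 0.013) and -0.73 in WT (limma adjusted p = 0.162). Further calls were Nnat, lower in WT by -0.88 (limma adjusted p = 0.0456), and, in Tnfr2-/- cultures, Commd1 (-0.65, limma adjusted p = 0.0193) and Tnfrsf23 (0.68, limma adjusted p = 0.0403). None of these genes was called for the interaction, for which Dcn was the only one of the 31.

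Neither of the other PLAG family genes was called for genotype. Plagl2 was at 18.9 ± 7.88 in WT and 15.4 ± 3.85 in Tnfr2-/- cultures, and Plag1 at 0.551 ± 0.270 and 1.69 ± 1.59 (SD, n = 10 each). Their log2 differences over all days were -0.22 (limma adjusted p = 0.286) and 0.62 (limma adjusted p = 0.159). Plagl2 had a difference of -0.42 at the late days (limma adjusted p = 0.204, 95% interval -0.82 to -0.01). Plag1 had a mean of at least 1 only in Tnfr2-/- cultures and passed the filter through it, and neither gene was tested against Plagl1. Plagl2 rose from early to late in both WT (0.87) and Tnfr2-/- cultures (0.54), the latter with a limma adjusted p of 0.0414 that became 0.0695 with each library rescaled to the same total.

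Among 7 genes named elsewhere as targets of Plagl1, 6 passed the filter, 2 were called higher over all days and none lower, where 7.6% of all genes tested were called. Socs3, an inhibitor of cytokine receptor signalling, rose by a log2 difference of 1.02 (limma adjusted p = 0.00373), from 20.5 ± 5.802 in WT to 44.1 ± 16.8 in Tnfr2-/- cultures (SD, n = 10 each). Cdkn1a, the cell cycle inhibitor p21, rose by 0.22 (limma adjusted p = 0.0394), a call that was lost with the correlated replicate block (adjusted p = 0.0897), with each library rescaled to the same total (0.11) and in 17 of 24 fits leaving out a mouse or a library. Apaf1, Pparg, Tcf4 and Slc2a4 were not called, with differences from -0.53 to -0.07. Socs3 was the 1 called at the late days (1.41, limma adjusted p = 0.014), against 6.45% of all genes tested. Pparg rose from early to late in WT (1.11), the 1 of 6 called there against 20.1% of all genes tested. In Tnfr2-/- cultures 3 of 6 were called, against 20.3%, Pparg (0.72), Tcf4 (0.69) and Socs3 (0.80). Of these calls that of Socs3 was lost in 18 of 24 fits that left out a mouse or a library and in 4 of 7 other settings, and that of Pparg in 11 of 24.

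Of 19 genes of the IGF axis 12 passed the filter, and over all days Igfbp3, an IGF binding protein, was the 1 called, close to the 7.6% of all genes tested. It rose by 1.43 (limma adjusted p = 0.0183), from 45.8 ± 30.5 to 106 ± 44.1 (SD, n = 10 each). The difference of Igfbp3 was 0.57 without WT mouse 1 (adjusted p = 0.134) and 2.29 without WT mouse 2, and the call was also lost without Tnfr2-/- mouse 1 (adjusted p = 0.0907) or mouse 2 (0.316). At the late days 2 were called, where 6.45% of all genes tested were. Igf2bp2, which binds Igf2 mRNA, rose by 0.76 (limma adjusted p = 0.0232) and Igfbp6 by 1.34 (limma adjusted p = 0.0438, and 0.0506 with each library rescaled to the same total). The call of Igfbp6 was lost in 19 of 24 fits that left out a mouse or a library, each of the 4 mice included, and without the filter (adjusted p = 0.0796), and that of Igf2bp2 in 8 of 24. The receptor Igf1r (-0.06) and the imprinted receptor Igf2r (0.23) were not called over all days. Igf1 was far above Igf2 in level, at 213 ± 85.0 in WT and 182 ± 86.1 in Tnfr2-/- cultures (SD, n = 10 each), and was not called either (limma adjusted p = 0.639). The insulin receptor Insr rose from early to late in WT (0.66) and Tnfr2-/- cultures (0.69), and Igfbp5 (1.45) and Igfbp7 (0.92) were called in Tnfr2-/- cultures. These are 1 of 12 in WT and 3 of 12 in Tnfr2-/- cultures, against 20.1% and 20.3% of all genes tested.

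Of 6 cyclin-dependent kinase inhibitors related to Cdkn1c in function, 2 were called over all days, Cdkn1a and Cdkn2b (0.62, limma adjusted p = 0.00537), both higher in Tnfr2-/- cultures, where 7.6% of all genes tested were called. Without WT mouse 1 the difference of Cdkn2b was 0.35 (adjusted p = 0.0885), and its call was also lost without either Tnfr2-/- mouse (0.139 and 0.0771). At the late days 1 was called, against 6.45% of all genes tested. Cdkn2c fell by 0.96 (limma adjusted p = 0.0429, and 0.0562 with the correlated replicate block), a call lost in 17 of 24 fits that left out a mouse or a library. From early to late Cdkn2b rose by 0.84 in WT and 0.83 in Tnfr2-/- cultures, Cdkn1b was called in WT (0.61, limma adjusted p = 0.0332) and Cdkn2c in Tnfr2-/- cultures (-1.36, limma adjusted p = 0.00163). These are 2 of 6 in each genotype, where 20.1% and 20.3% of all genes tested were called.

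Of 10 factors that maintain imprints 8 passed the filter, and 1 was called over all days, where 7.6% of all genes tested were. Zfp445, a zinc finger protein that guards imprinted methylation, fell in Tnfr2-/- cultures by 0.33 (limma adjusted p = 0.0157), from 38.7 ± 5.55 to 30.7 ± 5.94 (SD, n = 10 each). Its partner in this role, Zfp57, was at 23.5 ± 9.47 and 25.5 ± 4.15 and was not called (limma adjusted p = 0.593). From early to late Dnmt1, the maintenance methyltransferase, and Uhrf1, which recruits it to replicating DNA, fell in both genotypes, by 0.48 and 0.83 in WT and by 0.79 and 1.13 in Tnfr2-/- cultures. Trim28, the corepressor that both zinc finger proteins use, fell by 0.31 in Tnfr2-/- cultures (limma adjusted p = 0.0345), where Dnmt3a, a methyltransferase that sets new methylation, rose by 0.83 (limma adjusted p = 0.00882). In WT Dnmt3a had a difference of 0.56 (limma adjusted p = 0.0538), and its interaction was not called (limma adjusted p = 0.742). Trim28 had a difference of -0.05 in WT (limma adjusted p = 0.762) and was not called for the interaction either (limma adjusted p = 0.476). Of these factors 2 of 8 were called in the WT course and 4 of 8 in the Tnfr2-/- course, against 20.1% and 20.3% of all genes tested. The call of Zfp445 was lost in 4 of 24 fits that left out a mouse or a library. Those of Trim28 and of Dnmt1 in WT were lost in 11 and 8 of 24, and each of the others in 2 of 24.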

How the data were processed

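Poly(A) RNA of 20 colonoid libraries was sequenced. According to the submitters' processing notes, CASAVA, kallisto, sleuth and mm10 were used. The deposited signal per transcript was inferred from the values to be TPM that the authors scaled with size factors, 1 per library, and sums to 900655 to 1111080 per library. The table also holds the authors' own test results, which were not used. Of 113974 lines, 781 repeated lines were dropped. Values were added per gene symbol and analysed as log2(value + 1) for the 13539 genes with a mean of at least 1, with limma-trend (limma 3.58.1 under R 4.3.3). P-values were adjusted over these genes by Benjamini-Hochberg, and called means an adjusted p under 0.05. Fold changes of low genes are understated on this scale. The plan had assumed a scaled expression unit, and the rule for normalised values was kept.

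Genotype over all days was fitted beside day as a factor, and other comparisons from a fit with a mean per genotype and day. The labels' replicate number was read as the mouse. Libraries of 1 mouse deviated together at a median correlation of 0.0899 (18 of 40 pairs over 0.1), so the mouse was also fitted as a block. With 2 mice per group the deviations of 1 mouse mirror those of the other. The 40 pairs thus hold each correlation for both mice and are not independent. Exact permutation of 2 mice against 2 cannot give a p under 0.333. Members and gene lists were chosen with earlier results of these data known. All members are named, and from each list the called genes, at most 5 per direction by lowest p. Of 84 member transcripts, 74 matched GENCODE M21 by version. Promoters are those of RefSeq. Reads behind a value are unknown, so no counting interval is given. The fit was tested on simulated data with independent libraries. No shared effect of a mouse was simulated, so false calls from that source were not tested. Pseudocount, filter, summing per Ensembl gene, scaling, block and left-out mice and libraries were varied.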

Additional observations from a re-analysis of the deposited data

Results flagged for a closer look

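Among 32 groups of libraries (8 members, 2 genotypes, early or late days), 7 held a library far from the others by Dixon's test. Chance alone gives this for about 5% of groups if values are normally distributed. Values listed at 0 break that condition here, so the 7 are not weighed against that share. In Plagl1 the flagged library was the 3.79 of Tnfr2-/- mouse 2 on day 2, with the next of the early libraries at 2.38. In Cdkn1c it was the 13.8 of WT mouse 1 on day 2, next to 6.70, and in Ndn the 0.44 of Tnfr2-/- mouse 1 on day 5, the lowest of the late libraries, next to 1.40. In Peg3 it was the 1.16 of WT mouse 1 on day 1. In Dlk1, listed at 0 in most libraries, it was the 0.482 of WT mouse 1 on day 2, the 2.25 of WT mouse 1 on day 5 and the 0.702 of Tnfr2-/- mouse 2 on day 1. For the 2.25 and the 0.702 every other library of the group was listed at 0, which fixes the flag in advance.

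Dcn had courses in opposite directions in the 2 genotypes, with an interaction of 1.81 (limma adjusted p = 0.0403), a call lost in 16 of 24 fits that left out a mouse or a library.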

How the results depend on the processing

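None of the 6 members was called in the WT course or for the interaction, and none of the 5 besides Plagl1, which was not tested for genotype, at the late days, under any of the alternatives run. Over all days the number of members called without Plagl1 was 2, and it was 1 with a pseudocount of 0.1 (Mest), 0 with the 4 mice as a correlated replicate block, 0 on the means per mouse, and 0 to 2 when a mouse or a library was left out. It was 0 without Tnfr2-/- mouse 1. With the replicate number as a fixed block it was 2, as it was without a filter, per Ensembl gene and with each library rescaled to the same total. In the Tnfr2-/- course the number was 1, and 0 on the means per mouse and 0 to 1 over the leave-outs. Of the other calls named, the correlated block ended those of Cdkn1a, Cdkn2c and Smoc1 given above and of the markers Cdh1, Epcam, Csf1r and Twist1, and every call named was lost on mouse means. Outside the members, 71 of the 77 calls named were lost when at least 1 of the 4 mice was left out, and the other 6 were kept in all 24 leave-outs. These are Dcn for genotype over all days and at the late days and Cd81, Pon2, Epcam and Cdh1 in the WT course. Rescaling each library also ended the calls of Cdkn1a and Cdh1 (all days), Smoc1 and Igfbp6 (late days), Cdkn1b and Thy1 (WT course) and Tnfrsf23, Pparg, Socs3, Igfbp7, Col1a2 and Plagl2 (Tnfr2-/- course). Dropping the filter ended those of Twist1, Epcam and Csf1r (all days), Smoc1, Igfbp6 and Cdkn2c (late days), Nnat, Cdkn1b, Tagln, Thy1, Cldn7, Chga and Pyy (WT course) and Pon3, Tnfrsf23, Plagl2, Pparg, Socs3, Igfbp7, Col1a1, Col1a2, Krt8 and Krt19 (Tnfr2-/- course). A pseudocount of 0.1 ended those of Ndn and Chga (all days), Smoc1 (late days), Nnat, Chga and Pyy (WT course) and Socs3 (Tnfr2-/- course). With that pseudocount the difference of Ndn was larger, at 1.497 (SE 0.456). Over the 7 settings other than the leave-outs, these genotype differences ranged from -2.238 to -1.563 for Chga and 1.166 to 1.867 for Smoc1. In those settings the WT course ranged from -1.003 to -0.88 for Nnat, 1.821 to 2.571 for Chga and 3.002 to 3.675 for Pyy. The Tnfr2-/- course of Socs3 ranged from 0.714 to 0.819. Summing per Ensembl gene and the fixed block ended none of the calls named. Values of calls outside the members that moved by over 1.5 times in the leave-outs, besides those given above, were as follows. Without WT mouse 1 they were 0.20 for Cd81 over all days, 1.11 for Twist1 at the late days and, in the WT course, 0.65 for Pparg, -0.31 for Dnmt1, -0.74 for Twist1, 0.31 for Cldn7 and 0.52 for Csf1r. Without WT mouse 2 they were 0.22 for Epcam over all days, 0.74 for Smoc1 and -0.60 for Cdkn2c at the late days and 1.81 for Csf1r in the WT course. Without Tnfr2-/- mouse 1 the Tnfr2-/- course was 0.42 for Pon3, -0.78 for Phlda2, -0.75 for Uhrf1 and -0.20 for Krt19. Single libraries moved the WT course to 0.73 for Pparg, 1.08 for Chga and 1.99 for Pyy (without day 5 of mouse 1), 0.35 for Cldn7 (without day 7 of mouse 1) and 0.80 for Tagln (without day 5 of mouse 2). On mouse means 7 genes of all tested were called over all days and 0 in the other comparisons, against 1029 and 873 for the genotype over all days and at the late days, 2724 and 2755 for the WT and Tnfr2-/- courses and 20 for the interaction. With the correlated block 545 and 743 were called for genotype. Interactions were called for 10 genes with a pseudocount of 0.1, 55 without the filter, 47 with the correlated block and 96 with the fixed block.

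Plagl1 at the late days ranged from -2.94 to -1.93 over the leave-outs (without WT mouse 1 and mouse 2) and over all days from -2.71 to -2.36. Differences that were not called changed sign in some leave-outs. For Plagl1 these ranged from -0.30 to 0.80 in the WT course, -0.012 to 0.86 in the Tnfr2-/- course and -0.37 to 0.72 for the interaction. For Igf2 the interaction ranged from -0.49 to 0.41 and was 0.075 with a pseudocount of 0.1. For Grb10 the late genotype difference ranged from -0.34 to 0.24 and the Tnfr2-/- course from -0.33 to 0.25. For Mest the WT course ranged from -0.89 to 0.27, the Tnfr2-/- course from -0.45 to 0.43 and the interaction from -0.27 to 0.88. For Ndn the interaction ranged from -0.21 to 0.16 and was 0.125 with a pseudocount of 0.1. The causes were not tested.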
